A study of Homo sapiens with 40 samples.

Results

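The genes of the 7 ligands of EGFR (EGF, TGFA, AREG, EREG, EPGN, BTC and HBEGF) were followed in ATAC-seq peak lists from BT474 and BT474R breast cancer cells. ATAC-seq inserts adapters into open chromatin with a transposase, and a peak is an interval where one library held more reads than its surroundings. A region was a member if its midpoint lay inside one of these genes or within 50 kb of either end, and if at least 2 of the 40 lists had a peak there. This gave 26 regions of the 71600 in the series, 2 of them counted for both EREG and EPGN. BT474 is an established HER2-overexpressing ductal carcinoma line that responds to trastuzumab, an antibody against HER2. BT474R is 1 trastuzumab-resistant clone, obtained by growing BT474 with the antibody, so resistance and clonal origin cannot be told apart. Cells of both lines were serum starved and sampled untreated (baseline, 0 h) or 1, 12 and 24 h after EGF, heregulin (HRG) or the water vehicle (control). Each of the 20 groups held 2 libraries from duplicate treatments, so the tests measure the spread between duplicates of one experiment.

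The ligands are made as membrane-anchored precursors that proteases of the ADAM family cut free, after which they bind EGFR on the same or a neighbouring cell. EGF, TGFA, AREG and EPGN bind EGFR alone, whereas EREG, BTC and HBEGF also bind ERBB4. Several of these genes are known to be induced by EGFR signalling through MAPK, the basis of autocrine loops in epithelial tumors. HRG, the product of NRG1, binds ERBB3 and ERBB4 instead, and both receptors pair with HER2. EREG, EPGN, AREG and BTC lie in one cluster on chromosome 4, EGF lies further along that chromosome, TGFA on chromosome 2 and HBEGF on chromosome 5.

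Accessibility was given as a rank percentile, the place of a peak's score among all peaks of its own list, from 0 where no peak was listed up to 100. A region was called where limma's adjusted p over all regions was below 0.05. Peak lists carry no read totals, so depth was unknown and a 0 says only that no peak was called. In these bulk samples, fewer cells with a region open and a less open region in every cell cannot be told apart. BT474 lists held 47571 to 56846 peaks and BT474R lists 32479 to 56494. The control-BT474R lists at 12 h stood apart with 32479 and 40331 peaks, so weak regions called with ligand in that line are given with their value when the number of peaks was a covariate. Start sites of all 8 luminal epithelial markers had a peak in all 40 lists, KRT8, GATA3 and ERBB2 among them. Among markers of blood, endothelial and stromal cells, PTPRC, CD3E, PECAM1 and DCN had no peak in any list, CDH5 and COL1A1 had one in all 40, and COL3A1 had one in 8 BT474 lists and 1 BT474R list.

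The sequences shown are the 201 bases around the summit of 6 of the regions called with a ligand averaged over time points, and 187 bases up to the AREG start site. They were read from GRCh38 on the plus strand. Capitals mark matches to the AP-1 motif TGANTCA in the first 5, the FOX motif TGTTTAC and the AP-2 motif GCCNNNGGC in TGFA downstream, and the cyclic AMP response element TGACGTCA in AREG upstream. No annotated exon overlaps any of the 7 intervals. The other regions so called are not shown. They lay at the BTC start site, in introns of BTC and PFDN1 and 155 kb from the TGFA start, and held no AP-1 match within 100 bases of the summit.
EREG intron, chr4:74374637-74374837: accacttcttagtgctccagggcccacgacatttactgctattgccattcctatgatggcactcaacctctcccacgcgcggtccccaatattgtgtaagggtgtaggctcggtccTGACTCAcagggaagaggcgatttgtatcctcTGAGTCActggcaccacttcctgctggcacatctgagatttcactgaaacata
HBEGF upstream, chr5:140349354-140349554: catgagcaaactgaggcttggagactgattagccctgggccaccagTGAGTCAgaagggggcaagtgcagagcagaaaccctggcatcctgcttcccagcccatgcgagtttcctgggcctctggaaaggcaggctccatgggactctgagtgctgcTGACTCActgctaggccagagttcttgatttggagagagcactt
TGFA intron, chr2:70524503-70524703: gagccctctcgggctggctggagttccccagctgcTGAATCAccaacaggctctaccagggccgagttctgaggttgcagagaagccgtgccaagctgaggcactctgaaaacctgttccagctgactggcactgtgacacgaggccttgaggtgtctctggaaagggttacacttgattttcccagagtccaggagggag
EPGN to EREG interval, chr4:74320623-74320823: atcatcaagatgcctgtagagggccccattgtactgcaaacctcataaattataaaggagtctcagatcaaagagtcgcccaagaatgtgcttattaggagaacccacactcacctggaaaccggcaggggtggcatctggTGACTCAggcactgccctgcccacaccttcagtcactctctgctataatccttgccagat
EGF intron, chr4:109967914-109968114: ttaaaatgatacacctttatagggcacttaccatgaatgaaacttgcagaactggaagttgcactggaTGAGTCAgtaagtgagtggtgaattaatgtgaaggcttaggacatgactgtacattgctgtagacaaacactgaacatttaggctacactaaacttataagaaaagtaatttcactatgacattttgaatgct
TGFA downstream, chr2:70420102-70420302: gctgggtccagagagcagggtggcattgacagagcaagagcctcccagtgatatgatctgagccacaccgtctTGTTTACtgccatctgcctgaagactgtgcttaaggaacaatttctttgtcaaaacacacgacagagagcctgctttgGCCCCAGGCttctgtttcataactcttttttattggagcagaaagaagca
AREG upstream, chr4:74444949-74445135: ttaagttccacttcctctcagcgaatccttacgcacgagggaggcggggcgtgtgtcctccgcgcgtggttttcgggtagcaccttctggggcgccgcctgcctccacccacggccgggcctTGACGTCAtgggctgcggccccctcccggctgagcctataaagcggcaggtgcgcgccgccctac

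Of the 26 regions, 8 had a peak in all 40 lists (30.8%, against 35.1% of all regions), 5 had peaks only in BT474 lists and 4 only in BT474R lists. TGFA, AREG, BTC and HBEGF had a peak within 1 kb of the gene's start in all 40 lists. EPGN had one in 16 BT474 lists and 5 BT474R lists. EGF and EREG had none in any of the 40 lists. EREG was represented by its intron and flanks alone, and EGF by a region 55.1 kb inside the gene, at an internal start site, and a weak one beyond its end, in an intron of ELOVL6, with peaks in 2 BT474 lists. The heat map of the 26 regions shows these levels by group.

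**Figure D1:**
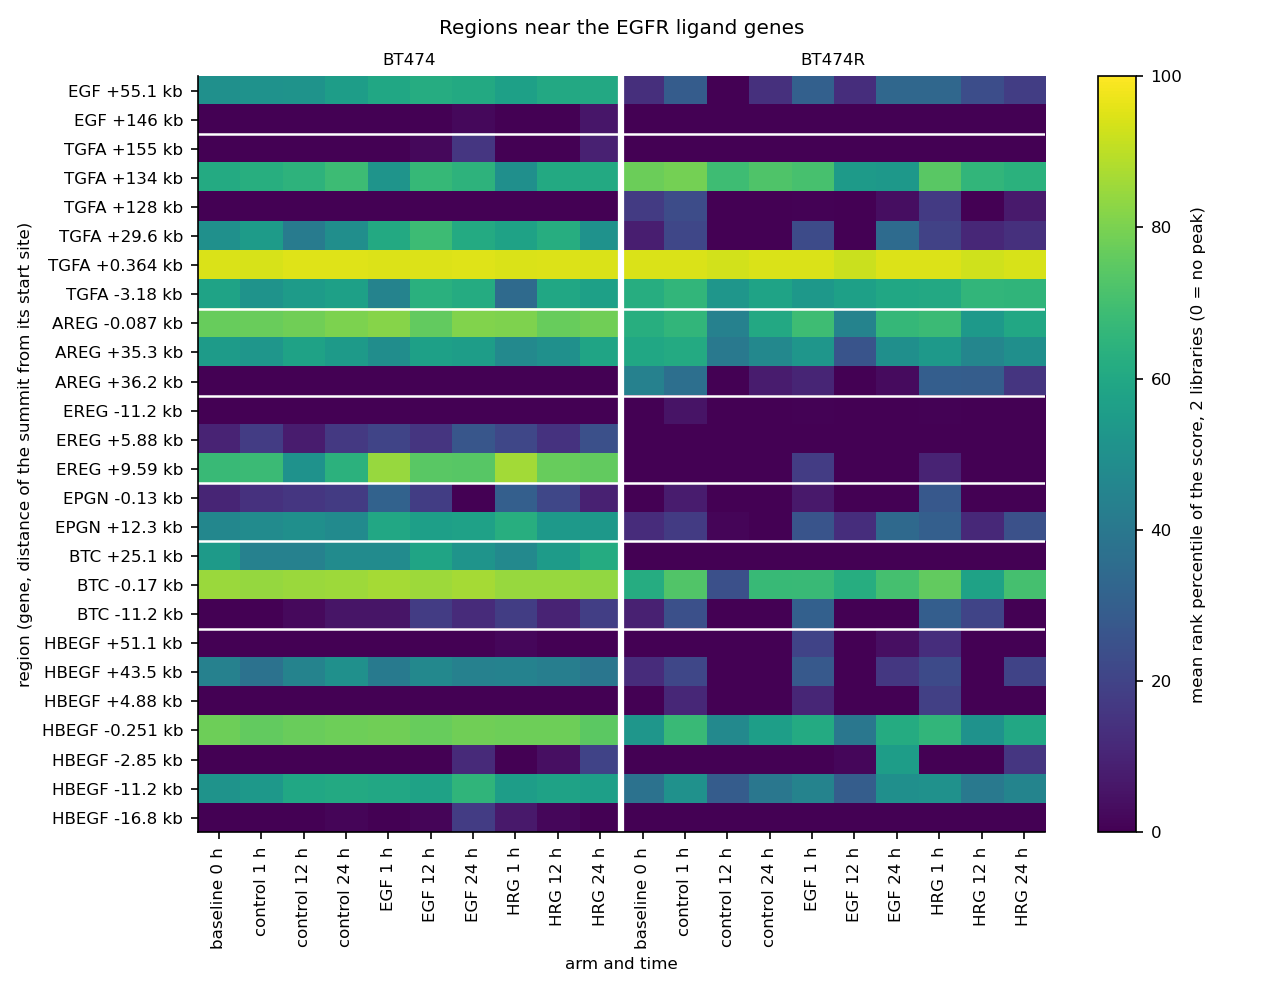
Mean rank percentile of the peak score in the 2 libraries of each group (colour, 0 for no peak) for the 26 regions near the EGFR ligand genes. Rows are named by gene and by the distance of the summit from its start site. Columns are arms and times in BT474 (left) and BT474R (right). The TGFA start site lies above 91 in every library. In BT474R 16 of the 26 rows were called lower, as were 32962 of all 71600 regions.

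Levels of different regions were compared on the rank of the −log10 p at the summit, which does not grow with peak width. On that scale the order of the start sites in BT474 was TGFA (median 81.1 of 20 libraries, range 74.1 to 86.5), HBEGF (74.6, 65.7 to 80.4), BTC (65.6, 59.2 to 74.3), AREG (61.4, 50.8 to 71.3) and EPGN (7.97, 0 to 21.5). Each neighbouring pair down to AREG overlapped in range, whereas EPGN lay below all the others. In BT474R the order was TGFA (76.4, 62.4 to 82.7), AREG (45.4, 19.2 to 68.3), HBEGF (41.8, 14.0 to 58.9), BTC (29.3, 1.82 to 48.5) and EPGN (0, 0 to 12.5). AREG, HBEGF and BTC overlapped one another, and the lowest TGFA library overlapped the highest of AREG.

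EREG encodes epiregulin, a broad-acting ligand of EGFR and ERBB4. Its intronic region 9.59 kb into the gene (chr4:74374406-74375652) rose with both ligands in BT474. Baseline libraries read 69.2 and 66.6. At 1 h the score percentiles were 66.5 and 69.6 in control, 84.0 and 84.8 with EGF and 85.2 and 87.1 with HRG. At 12 h they were 46.2 and 55.8 in control, 71.8 and 76.7 with EGF and 75.2 and 78.1 with HRG, and at 24 h 65.8 and 62.8, 76.4 and 71.6, and 78.0 and 74.3 in the same order. The lowest ligand library of the 12, at 71.6, lay above the highest of the 6 control libraries, at 69.6. Averaged over time points, the difference was 16.5 with EGF (SE 2.12, limma adjusted p = 4.94e-06) and 18.5 with HRG (SE 2.12, adjusted p = 7.24e-07). Both p-values were 0.00926 in an exact two-sided permutation within time points, the smallest that this design allows. At single time points the calls were EGF at 1 h (difference 16.4) and 12 h (23.2) and HRG at 1 h (18.1), 12 h (25.6) and 24 h (11.8), while EGF at 24 h did not pass. EGF at 1 h lost its call without control replicate 1 (14.8, adjusted p = 0.0942) and without EGF replicate 1 (16.8, 0.0513) or 2 (16.0, 0.0559), and HRG at 24 h lost it without any of its 4 libraries (10.0 to 13.7). The 12 h control was itself lower than baseline (51.01 against 67.9, difference -16.9, adjusted p = 0.0256). This call was lost without baseline replicate 1 (-15.6, 0.217) or 2 (-18.15, 0.0645) or control replicate 1 (-12.1, 0.387).

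In BT474R the same intron had a peak in only 4 of 20 lists. These were the 4 ligand libraries at 1 h, at 24.6 and 10.6 with EGF and 11.0 and 8.69 with HRG. The EGF difference at 1 h was 17.6 (SE 3.67, adjusted p = 0.00363, 0.0079 with BT474R fitted alone), and 18.7 (adjusted p = 0.00366) with the number of peaks as a covariate. It was 0 where peaks had to cover 50% of the region. It missed the threshold without EGF replicate 1 (10.6, adjusted p = 0.11), and the difference was 0 when each list was cut to its 32479 highest peaks, the number in the shortest list. The test of the difference between lines gave -10.6 for EGF (BT474R minus BT474, SE 2.99, adjusted p = 0.0262) and -15.2 for HRG (SE 2.99, adjusted p = 0.00208). Without the 12 h libraries they were -4.25 (adjusted p = 0.643) and -10.1 (0.164), and the EGF value also missed the threshold without any of 6 single libraries (-8.24 to -10.1). In BT474R all control lists, and all ligand lists at 12 and 24 h, were at 0, the floor of the scale. These line differences therefore cannot tell a weaker response from a region below peak calling. The second intronic region of EREG, 5.88 kb into the gene, had a peak in 19 of 20 BT474 lists and none of BT474R, at a median of 19.4 in BT474. A region 11.2 kb upstream of EREG had weak peaks in 3 BT474R lists at 1 h, 1 in each arm.

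**Figure D2:**
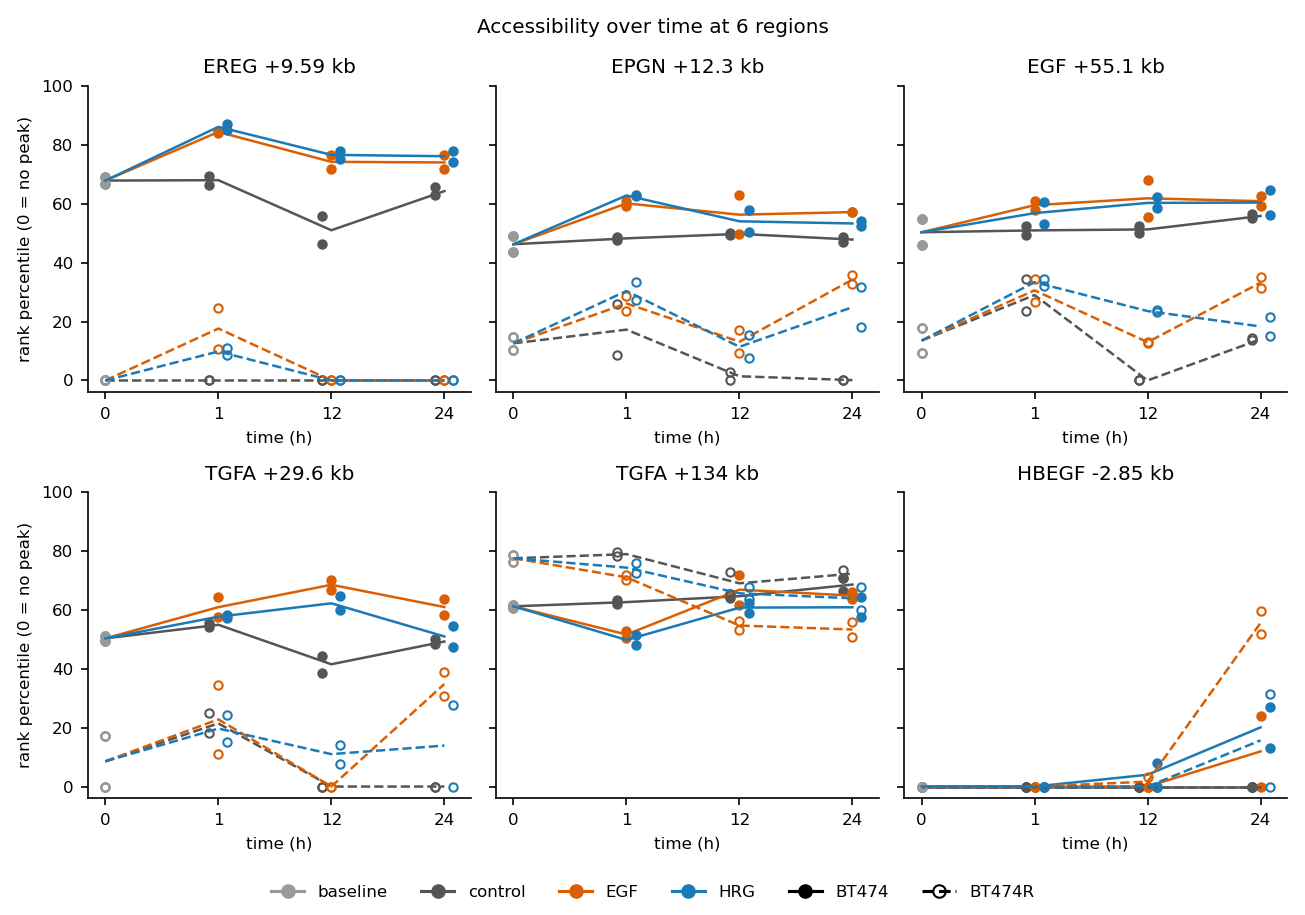
Rank percentile of the peak score against time (0, 1, 12 and 24 h) for 6 regions. Each point is 1 library, lines join group means, colours mark arms (grey for baseline and control, orange for EGF, blue for HRG), filled points with solid lines are BT474 and open points with dashed lines BT474R. At the EREG intron all 12 ligand libraries of BT474 lie above the 6 control libraries, and upstream of HBEGF the highest points are EGF-BT474R at 24 h.

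EPGN encodes epigen, a low-affinity ligand of EGFR. The region between EPGN and EREG (chr4:74320501-74321056), 12.3 kb downstream of the EPGN start and 44.4 kb upstream of the EREG start, had peaks in all BT474 lists and in 18 BT474R lists. In BT474R it read 25.8 and 8.66 in control at 1 h, 0 and 2.82 at 12 h and 0 and 0.218 at 24 h. With EGF the values were 28.7 and 23.5, 17.1 and 9.21, and 32.7 and 35.8, and with HRG 27.4 and 33.3, 15.3 and 7.47, and 31.6 and 18.2. Control and ligand libraries were separated at 12 and 24 h in both arms and overlapped at 1 h with EGF. The time-averaged difference was 18.3 with EGF (SE 2.97, adjusted p = 6.86e-05) and 16.0 with HRG (SE 2.97, adjusted p = 0.000866). With the number of peaks as a covariate they were 17.1 (4.46e-05) and 12.3 (0.0198). The HRG call was lost where peaks had to cover 50% of the region (11.4, adjusted p = 0.126). In BT474 the control libraries spanned 47.0 to 50.05, the EGF libraries 49.6 to 62.9 and the HRG libraries 50.2 to 62.9. The EGF difference was 9.24 (SE 2.97, adjusted p = 0.0361) and the HRG difference 8.10 (SE 2.97, 0.0693). With 50% of the region covered, the EGF call in BT474 was lost (adjusted p = 0.218). The EGF value missed the threshold with that covariate (0.136) and without any of 11 single libraries (7.03 to 9.53). The EPGN start site itself reached 31.3 and 31.9 with EGF and 27.3 and 33.6 with HRG at 1 h in BT474, against 24.2 and 4.34 in control. It was at 0 in both EGF-BT474 libraries at 24 h. None of its ligand differences passed the test.

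EGF encodes the founding ligand of the family. Its intronic region (chr4:109967632-109968458) was higher with EGF in both lines. In BT474 the 6 control libraries spanned 49.5 to 56.5 (median 52.4), the EGF-treated ones 55.6 to 68.1 (60.2) and the HRG-treated ones 53.1 to 64.6 (59.5). The EGF difference was 8.05 (SE 2.61, adjusted p = 0.038). It missed the threshold with the number of peaks as a covariate (0.134) and without any of 9 single libraries (5.98 to 8.54). In BT474R the controls read 34.4 and 23.6 at 1 h, where EGF gave 34.4 and 26.8 and HRG 34.6 and 32.1, without separation. Both control libraries were at 0 at 12 h, where HRG gave 24.0 and 23.1 and EGF 12.9 and 13.1. At 24 h the control values were 14.3 and 13.7, the EGF values 35.0 and 31.4 and the HRG values 21.6 and 15.1. The time-averaged differences in BT474R were 11.3 with EGF (SE 2.61, adjusted p = 0.00283) and 10.8 with HRG (SE 2.61, adjusted p = 0.00816). With the covariate the EGF difference was 10.3 (0.00235), and the HRG difference was 7.74 and missed the threshold (0.12). Without the 12 h libraries the HRG difference was 4.35 (0.787). Where peaks had to cover 50% of the region, both BT474R differences were 0. The EGF call in BT474 was lost there too (24.3, adjusted p = 0.247).

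These BT474R peaks were low in their lists. Cut to the 32479 highest peaks of each list, the time-averaged difference in BT474R was 0.412 with EGF and 0 with HRG between EPGN and EREG, 0 with both ligands in the EGF intron and 0.333 with EGF in the TGFA intron described next. None of them was called there, each with an adjusted p of 1.

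TGFA encodes transforming growth factor alpha, a ligand of EGFR alone. Its start site had the highest median of the start sites in both lines and did not pass any ligand test, with time-averaged differences from -0.374 to 0.0345 (SE 0.43). The region 134 kb from the start (chr2:70419948-70420850, past the 3′ end of the gene, in an intron of a long noncoding RNA) fell. In BT474R the control libraries read 79.7 and 78.1 at 1 h, 65.3 and 72.7 at 12 h and 71.0 and 73.7 at 24 h. The EGF libraries read 71.9 and 70.2, 56.2 and 53.1, and 50.7 and 56.0, below the controls at each time point. The time-averaged difference was -13.7 (SE 1.85, adjusted p = 6.2e-06), and -14.7 (2.15e-07) with the number of peaks as a covariate. The call was lost where peaks had to cover at least 50% of the region (0.0583). It was lower with HRG in BT474 (difference -8.15, SE 1.85, adjusted p = 0.00261), with 51.5 and 48.1 at 1 h against 62.0 and 63.3 in control. The EGF difference in BT474R minus that in BT474 was -9.54 (SE 2.62, adjusted p = 0.0216), and EGF minus HRG in BT474R was -8.28 (SE 1.85, adjusted p = 0.00451). The difference between lines was -0.751 (adjusted p = 0.986) where peaks had to cover 50% of the region and -10.5 (0.0751) when ranked by −log10 p, and that between ligands missed the threshold with 50% covered (0.373). Without the 12 h libraries they were -6.04 (0.357) and -6.94 (0.0808), and the first missed the threshold without EGF-BT474 replicate 2 at 12 h (-7.85, 0.0527), control-BT474 replicate 2 at 24 h (-8.765, 0.0507) or control-BT474R replicate 2 at 12 h (-8.31, 0.0508).

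The TGFA intron, 29.6 kb into the gene (chr2:70524217-70525395), rose with EGF. In BT474 the 6 control libraries spanned 38.7 to 55.7 (median 49.3) and the 6 EGF libraries 57.5 to 70.3 (64.1), with no overlap, and the difference was 14.9 (SE 4.12, adjusted p = 0.0135, exact permutation p = 0.00926). It missed the threshold with the number of peaks as a covariate (10.5, 0.0682) and without the 12 h libraries (8.85, 0.368). The 12 h controls, at 38.7 and 44.4, lay below baseline, at 51.2 and 49.4, without a call. HRG-BT474 read 57.1 and 58.3 at 1 h, 64.6 and 59.9 at 12 h and 54.5 and 47.5 at 24 h. No HRG difference passed limma there, and the exact permutation p over time points was 0.037. In BT474R this intron read 18.0 and 24.9 in control at 1 h and 34.5 and 11.1 with EGF, which overlapped. At 12 h both control and both EGF libraries were at 0, while HRG gave 14.2 and 7.82. HRG gave 27.8 and 0 at 24 h. At 24 h both control libraries were at 0 and the EGF libraries at 38.9 and 30.7 (difference 34.8, SE 7.13, adjusted p = 0.000839), and the difference was 24.4 (0.0156) with the covariate. Among the 32479 highest peaks this difference was 0.999 with an adjusted p of 1. The time-averaged EGF difference there was 12.1 (SE 4.12, adjusted p = 0.044) and 10.0 (0.0408) with the covariate, a call lost with 23 of the 40 libraries left out in turn (8.17 to 12.1) and with BT474R fitted alone (0.159). It was -4.15 where peaks had to cover 50% of the region. At the far end of the locus, the region 155 kb from the start had peaks only in 5 BT474 lists, all with ligand, at 6.02 and 25.5 with EGF at 24 h, 8.28 and 9.74 with HRG at 24 h and 4.13 in 1 EGF library at 12 h. The EGF difference at 24 h was 15.8 (SE 3.06, adjusted p = 0.00104), and 25.5 or 6.02 when EGF replicate 1 or 2 was left out. The time-averaged EGF difference was 5.94 (SE 1.77, adjusted p = 0.0223). It was 9.18 or 2.70 without EGF replicate 1 or 2 at 24 h, and its call was lost without EGF replicate 2 at 12 h (5.25, 0.0849) and with BT474 fitted alone (0.117). Regions at 0 in most lists, like this one, have a fitted spread smaller than their own where they have a peak. This one entered through ligand lists alone. Its differences from control could only be 0 or positive and are given as a description. The region 128 kb from the start had peaks in 10 BT474R lists and no BT474 list. The highest were in 1 baseline library (31.7, the other at 2.93) and 1 control library at 1 h (29.5, the other at 17.2). EGF lowered it at 1 h in BT474R (0.589 against 23.3, adjusted p = 0.00862), and the difference was -16.8 (0.0314) with the covariate. The call was lost with that line alone (0.121), by rank of −log10 p (-9.65, 0.0671) and without control replicate 1 (-16.6, 0.197) or EGF replicate 2 (-22.15, 0.0722).

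HBEGF encodes heparin-binding EGF, known as an immediate early gene of growth factor signalling. Its start site was at 73.0 to 79.8 in BT474 and 35.5 to 69.7 in BT474R, and no ligand difference passed the test. The region 2.85 kb upstream (chr5:140349195-140349611, in an intron of a long noncoding RNA) was the member with the largest ligand difference. It read 0 in both controls of BT474R at 24 h, 51.7 and 59.5 with EGF and 31.4 and 0 with HRG. The EGF difference at 24 h was 55.6 (SE 6.55, adjusted p = 6.94e-07). BT474R alone gave an adjusted p of 9.16e-05 for it, the number of peaks as a covariate gave 49.6 (2.28e-05), and no alternative fit or single library left out ended the call. Among the other lists, 1 EGF-BT474R list at 12 h had it at 3.34 and 4 BT474 lists had it, at 27.0 and 13.1 with HRG at 24 h, 23.9 with EGF at 24 h and 8.03 with HRG at 12 h. No control or baseline list of either line had a peak there, so the region entered through ligand lists alone. Its differences from control could only be 0 or positive, and their p-values are given as a description. Averaged over time points, EGF lay above control in BT474R by 19.1 (SE 3.78, adjusted p = 0.000626), and by 17.9 (0.000812) with the covariate. EGF lay above HRG there by 13.9 (SE 3.78, adjusted p = 0.0198), and by 16.4 (0.00902) with the covariate. This rests on 3 EGF lists and 1 HRG list, among those through which the region entered, and is given as a description too. The comparison of ligands missed the threshold with BT474R fitted alone (0.059) and without EGF replicate 2 at 24 h (12.6, 0.0706) or EGF replicate 1 at 12 h (13.3, 0.0532), and was 8.62 without HRG replicate 2 at 24 h. The EGF response differed between the lines by 15.1 (SE 5.35), which did not pass (adjusted p = 0.0845).

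The remaining HBEGF regions were weaker or belonged to neighbours. In the intron of PFDN1 51.1 kb from the HBEGF start, EGF-BT474R read 17.3 and 22.9 at 1 h and HRG-BT474R 4.92 and 21.1, with both controls at 0. This region also entered through ligand lists alone. Its differences from control could only be 0 or positive and are given as a description. The EGF difference was 20.1 (SE 2.76, adjusted p = 4.13e-05, 0.0113 with BT474R alone), and the HRG difference 12.98 (SE 2.76, adjusted p = 0.0104) was lost with that line alone (0.201). With the number of peaks as a covariate they were 20.6 (0.000134) and 13.1 (0.0112). The HRG difference also missed the threshold without HRG replicate 2 (4.92, 0.205) or control replicate 1 (12.98, 0.0627), and was 21.1 without HRG replicate 1. The EGF response averaged over time was larger in BT474R by 8.12 (SE 2.25, adjusted p = 0.0232), a call lost without EGF-BT474R replicate 2 at 1 h (7.18, 0.0574). No control or EGF-BT474 list had a peak in this PFDN1 intron. The 8.12 is therefore the EGF difference of BT474R alone and is given as a description too. An intronic region of HBEGF itself, 4.88 kb into the gene, had peaks in the 6 BT474R libraries at 1 h, controls included, and in no other list. In the SLC4A9 intron, 16.8 kb upstream, EGF-BT474 read 8.72 and 26.9 at 24 h against 0 and 2.94 in control (difference 16.3, SE 3.54, adjusted p = 0.00295). That call was lost without EGF replicate 2 (7.245, 0.146), and the difference was 25.4 without replicate 1. Regions at the PFDN1 start site (43.5 kb from the HBEGF start) and at a long noncoding RNA start site (11.2 kb upstream) passed no ligand test.

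AREG encodes amphiregulin, a major autocrine ligand of the mammary epithelium. Its start site passed no ligand test. Values were 75.2 to 83.1 in the 20 BT474 libraries, and the time-averaged ligand differences were 1.13 and 0.00291 in BT474 and 3.28 and 3.94 in BT474R (EGF and HRG, SE 2.88). The region 35.3 kb downstream of the start had a peak in all 40 lists and passed no ligand test. Next to it, a region 36.2 kb downstream of the start (chr4:74480969-74481403) had peaks in 15 BT474R lists and no BT474 list. It was high at baseline (44.6 and 43.3) and in control at 1 h (36.9 and 36.4), and low in control at 12 h (0.671 and 0) and 24 h (0 and 15.0). EGF-BT474R lay below HRG-BT474R by 20.5 on average (difference -20.5, SE 3.90, adjusted p = 0.001, 0.0463 with BT474R alone). EGF read 20.1 and 0.339 against 14.9 and 44.6 with HRG at 1 h. At 12 h the values were 0 and 0 against 30.9 and 27.9, and at 24 h 0 and 5.88 against 26.0 and 5.10. The ligands overlapped at 1 and 24 h and were separated at 12 h alone. With the number of peaks as a covariate the difference was -16.5 (adjusted p = 0.0045), and among the 32479 highest peaks of each list it was -1.96 (0.439). EGF lowered the region at 1 h (difference -26.4) and HRG raised it at 12 h (29.0), and both calls were lost with BT474R fitted alone (0.174 and 0.0919). With the covariate they were -19.8 (0.0752) and 17.4 (0.258), by rank of −log10 p -13.3 (0.301) and 16.9 (0.125), and among the 32479 highest peaks 0 (1) and 3.60 (0.422), so neither call held in these fits. The EGF call at 1 h was also lost without control replicate 1 (-26.2, 0.108) or 2 (-26.65, 0.0636) or EGF replicate 2 (-16.5, 0.37), and the HRG call at 12 h without control replicate 1 (29.4, 0.0719) or HRG replicate 1 (27.5, 0.0659).

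BTC encodes betacellulin, a ligand of EGFR and ERBB4. Its start site stayed between 82.3 and 88.1 in BT474 in all arms. In BT474R it read 36.8 and 12.1 in control at 12 h, against 61.6 and 62.7 with EGF and 61.8 and 53.1 with HRG. These differences were 37.8 (SE 5.51, adjusted p = 7.23e-05) and 33.0 (SE 5.51, adjusted p = 0.000344), and HRG was 20.7 without control replicate 2. The low values belonged to the 2 libraries with few peaks. With the number of peaks as a covariate the 12 h differences were 37.0 (adjusted p = 8.29e-05) and 29.7 (0.0146), and among the 32479 highest peaks of each list they were 37.5 and 23.9 and stayed called. Ranked by −log10 p, neither difference passed (0.156 and 0.474). At 1 and 24 h alone the differences in BT474R were -0.709 and 3.31, with adjusted p of 1 for both, against 12.1 and 13.2 over all 3 time points. The HRG call over all time points was lost with the covariate (11.5, 0.0809) and among the 32479 highest peaks (10.2, 0.135), and the EGF call when only peaks with a score of at least 400 were kept (11.9, 0.0614). Both were lost with BT474R fitted alone (0.0812 for EGF and 0.0945 for HRG). The EGF value over all time points was 7.999 without control replicate 2 at 12 h. An intronic region of BTC at an internal start site, 25.1 kb into the gene (chr4:74768943-74769546), had a peak in 20 of 20 BT474 lists (37.7 to 65.4) and in none of BT474R. It was higher with HRG in BT474 by 9.03 (SE 2.51, adjusted p = 0.0133). Ranked by −log10 p the difference was 0.231 (adjusted p = 1), and at 1 and 24 h alone it was 8.01 (0.105). The call was also lost with BT474 fitted alone (0.0661) and without control replicate 2 at 1 h (6.91, 0.0717), HRG replicate 2 at 1 h (6.68, 0.0703), control replicate 2 at 12 h (7.96, 0.0521) or HRG replicate 2 at 24 h (7.69, 0.053). With EGF in BT474 the intron was called at 12 h alone (difference 14.4, SE 4.35, adjusted p = 0.0466). It read 54.1 and 62.4 with EGF there, against 47.1 and 40.7 in control. The EGF call held in 5 of 10 alternatives and was lost with the number of peaks as a covariate (13.7, 0.087). EGF and HRG did not differ at this intron by limma. A region 11.2 kb upstream of BTC had peaks in 12 BT474 and 10 BT474R lists and passed no test.

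**Figure D3:**
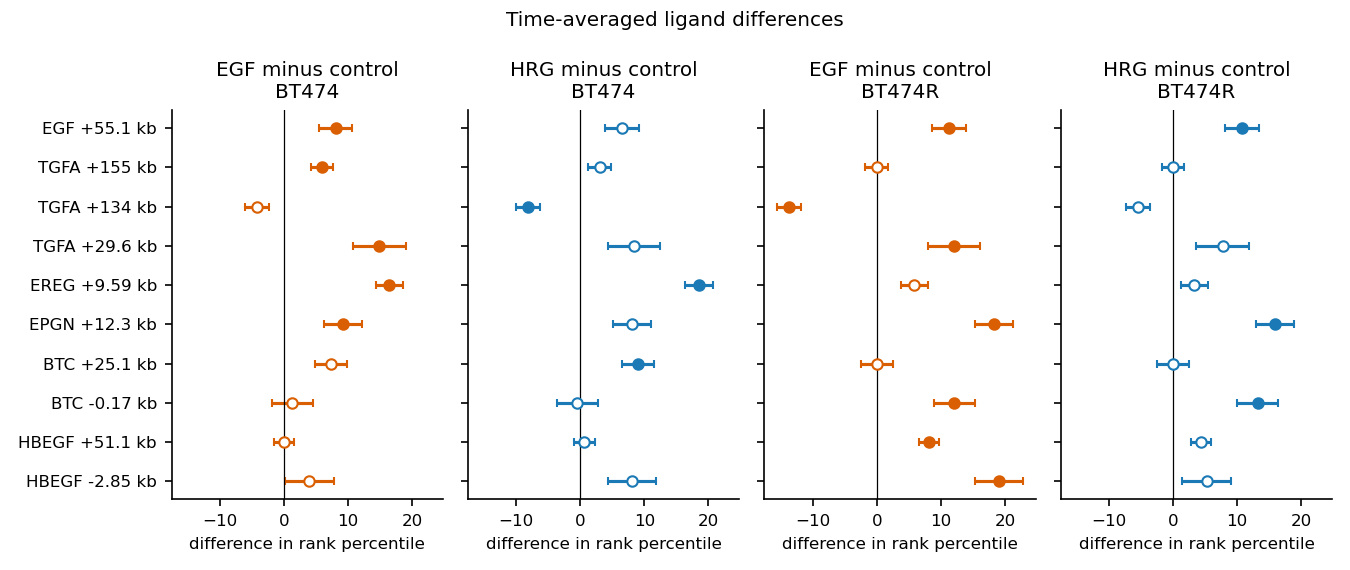
Time-averaged difference in rank percentile, ligand minus control, for the 10 regions called in at least 1 of the 4 comparisons. Points are estimates from the fit of all regions, bars are 1 SE, and filled points passed an adjusted p of 0.05. The TGFA region 134 kb from the start is the one region left of 0 in all 4 panels.

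How many of the 26 regions passed was read against all 71600 regions. For EGF over time points, 5 members rose and none fell in BT474 (15.3% of all regions were called), and 6 rose and 1 fell in BT474R (18.0%). For HRG, 2 rose and 1 fell in BT474 (16.2%) and 3 rose in BT474R (10.4%). These counts are near what the backgrounds give for 26 regions. In BT474 the median difference of the members was 1.22 with EGF (all regions 0.51) and 0.313 with HRG (0). In BT474R it was 0 with EGF (0) and 3.61 with HRG (1.38). At single time points in BT474, EGF gave 1, 3 and 2 member calls at 1, 12 and 24 h (background 4.37%, 7.03% and 11.6%) and HRG 2, 1 and 1 (8.11%, 8.87% and 10.8%). In BT474R, EGF gave 4, 2 and 5 (6.82%, 6.74% and 17.3%) and HRG 1, 3 and 1 (1.61%, 11.5% and 3.18%). EGF and HRG differed at 0 members in BT474 by limma (1.66%, 1 at an unadjusted p under 0.05) and at 3 in BT474R (10.1%). The response differed between the lines at 3 members for EGF (9.11%) and 1 for HRG (6.34%). All of these comparisons share their control libraries within a line. A total of 4 members had no peak in any baseline or control list and entered through ligand lists alone, namely the PFDN1 intron and the regions 2.85 kb upstream of HBEGF, 155 kb from TGFA and in the ELOVL6 intron, so their ligand differences could only be 0 or positive.

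Presence of a peak gave no member call between the arms. In Fisher's exact tests of 6 ligand against 6 control lists, 0 of 26 members reached an unadjusted two-sided p under 0.05 in any of the 4 comparisons. The background was 1.19% for EGF and 1.64% for HRG in BT474 and 0.388% and 0.207% in BT474R. With shares this low over all regions, 0 calls among 26 regions is no result about the members. In BT474, 15 of the 26 regions were open in all 12 lists of either comparison, which leaves presence nothing to show there. Regions open in some but not all of the 12 lists numbered 6 for EGF and 7 for HRG in BT474. In BT474R they numbered 13 for each ligand. The nearest was the PFDN1 intron, present in 4 of 6 EGF-BT474R lists and 0 of 6 controls (exact p = 0.0606). A split of 4 against 0 thus cannot pass this test, which leaves it little room among the partly open regions too.

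The lines differed at 22 of 26 members, 16 lower and 6 higher in BT474R, where 77.7% of all regions were called (32962 lower and 22685 higher). The median difference was -3.97 over the members and -1.22 over all regions. The largest were at the EREG intron (2.75 in BT474R against 72.3, difference -69.5, SE 1.16, adjusted p = 6.06e-24), the BTC intron (0 against 51.3), the TGFA intron (13.2 against 55.7), the interval between EPGN and EREG (17.2 against 53.6) and the EGF intron (20.9 against 56.8). Ranges over the 20 libraries of each line did not overlap at these regions except the TGFA intron, with 38.9 the highest in BT474R and 38.7 the lowest in BT474. Start sites were lower in BT474R at AREG (59.6 against 78.7), BTC (63.1 against 85.0) and HBEGF (56.3 against 77.3), each without overlap, and at EPGN (4.21 against 16.8). The share of all regions whose ranges do not overlap between the lines was not determined. Non-overlap at these members is therefore given as a description and does not set them apart from other regions. At TGFA the start site differed by -0.823 (SE 0.236, adjusted p = 0.00307), lost with the number of peaks as a covariate (0.774). The 9 members with peaks in one line only had entered through that line, and 7 of them are among the 22, so those 7 calls follow in part from how regions were chosen and are given as a description. Higher in BT474R were the regions 36.2 kb from AREG (17.6 against 0), 134 kb (68.1 against 61.2) and 128 kb (6.92 against 0) from TGFA, 3.18 kb upstream of TGFA (60.0 against 54.1), and 51.1 and 4.88 kb from HBEGF. Of these calls, that 134 kb from TGFA was lost by rank of −log10 p (2.22, adjusted p = 0.144), and with a score of at least 400 those 36.2 kb from AREG (1.89, 0.0602) and 3.18 kb upstream of TGFA (5.21, 0.073) were lost. Presence differed at 9 of 26 members (29.3% of all regions, Fisher's exact test, 20 against 20 lists, adjusted p under 0.05), 7 of them with fewer peaks in BT474R. Of these 9, 5 had peaks in one line only, so the count is given as a description.

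**Figure D4:**
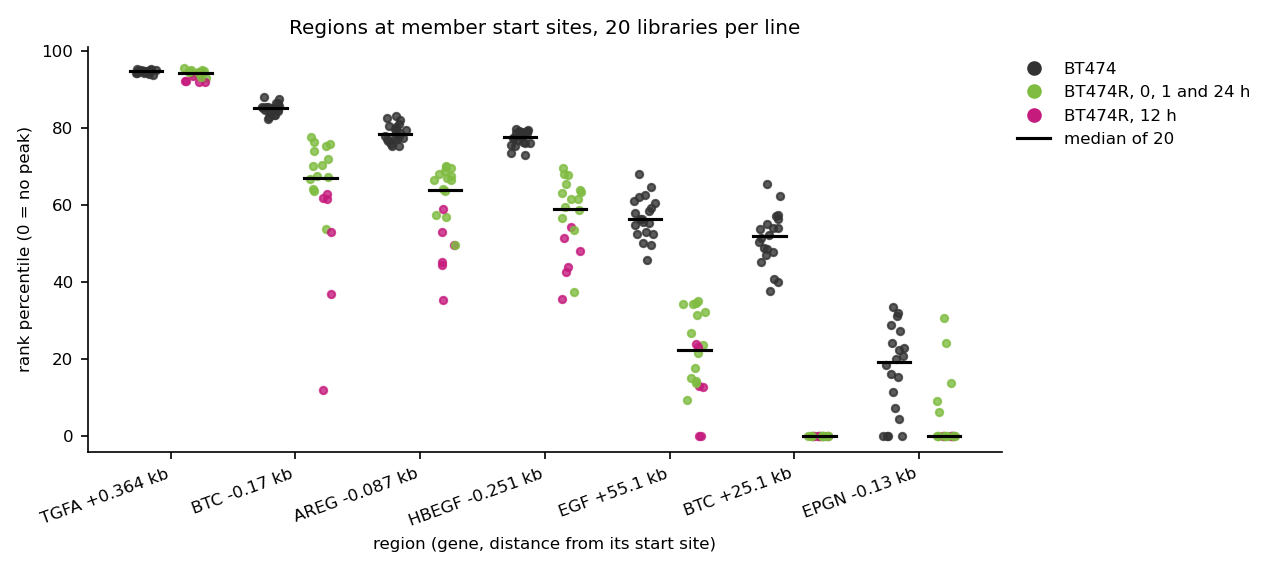
Rank percentile of the peak score in 20 libraries per line for the 7 regions at a start site of a member gene. Black points are BT474, green points BT474R at 0, 1 and 24 h, pink points BT474R at 12 h, and bars are medians of 20. TGFA stays above 91 in both lines, and AREG, BTC and HBEGF are lower in BT474R with the 12 h libraries near the bottom.

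Vehicle was compared with baseline at each time point to show what moved without a ligand. Baseline cells were already serum starved, and control cells had also received water in fresh starvation medium. In BT474, 0, 1 and 0 members were called at 1, 12 and 24 h (0.499%, 0.786% and 1.81% of all regions). At unadjusted p under 0.05 limma gave 1, 2 and 2 members. In BT474R the counts were 1, 6 and 2 (6.97%, 26.7% and 7.31%), all lower at 12 and 24 h. At 12 h the median over all regions was itself -5.32 and that of the members -7.09. The largest member changes were 36.2 kb from AREG (0.336 against 43.9) and at the BTC start site (24.4 against 62.0). None of the 6 calls at 12 h in BT474R held with the number of peaks as a covariate, but the size of the change differed. It stayed at -32.6 at the BTC start site (-37.5 without the covariate, adjusted p = 0.0505) and was -26.4 at the region 36.2 kb from AREG (-43.6, 0.178). At the other 4 it came to between -1.76 (128 kb from TGFA) and -4.71 (the EGF intron), each with an adjusted p of 1.

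AP-1, the dimer of FOS and JUN proteins induced by growth factors, binds TGANTCA. A match lay within 100 bases of the summit in 6 of 26 members, against 16.3% of all regions. The 6 were the EREG, TGFA and EGF introns, the interval between EPGN and EREG, the region 2.85 kb upstream of HBEGF and that 11.2 kb upstream of BTC, and the EREG and HBEGF regions held a pair each. Of the 9 members called higher in at least 1 of the 4 time-averaged ligand comparisons 5 held a match, and of the other 17 members 1 did. Over all regions the share with a match was 42.6% of the 17407 called higher and 3.76% of the 6879 called lower, where a region can count in both. The one member called lower, in the locus of TGFA, held FOX and AP-2 matches and no AP-1 match. The AREG start site held the only cyclic AMP response element of the 26 members, found in 0.656% of all regions, and passed no ligand test. The SP/KLF motif GGGCGG matched in 5 members and 19.3% of all regions. AP-2 matched in 5 members (16.7%) and FOX in 3 (8.5%). The TEAD motif GGAATG was found in 3 members (13.9%). The GATA motif AGATAA was found in 2 (8.93%), and the GRHL motif in the TGFA intron alone (3.87%). No member held the ETS motif CCGGAAG (3.84% of all regions). The NF-kB motif was likewise found in 0 members (0.908%). All motifs were searched on both strands, and a match is no evidence of binding.

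**Figure D5:**
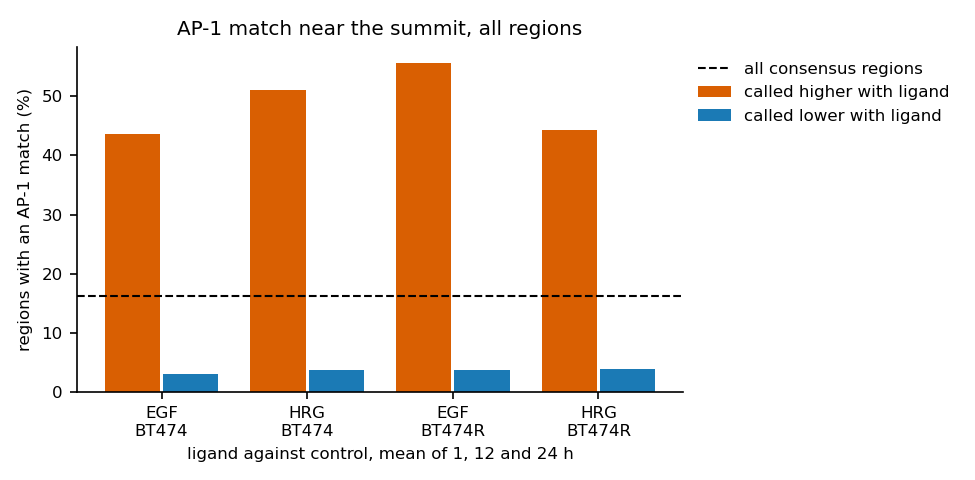
Share of regions (%) with an AP-1 match within 100 bases of the summit among all regions called higher (orange) or lower (blue) with ligand, for EGF and HRG in each line, and among all 71600 regions (dashed line, 16.3%). The bars for higher regions reach 43.6% to 55.6% and those for lower regions 3.04% to 3.82%.

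The receptors, the other ligands and the shedding machinery of the pathway were described for context: EGFR, ERBB2, ERBB3 and ERBB4, the neuregulins NRG1 to NRG4, the sheddases ADAM10 and ADAM17, and RHBDF1 and RHBDF2, which traffic ADAM17. Their windows held 122 regions. EGF raised 15 and lowered 2 of them in BT474 and raised 14 and lowered 8 in BT474R, and HRG raised 14 and lowered 4 in BT474 and raised 13 and lowered 0 in BT474R. The share called was 13.9% with EGF in BT474 (15.3% of all regions), 18.0% in BT474R (18.0%), 14.8% with HRG in BT474 (16.2%) and 10.7% in BT474R (10.4%), so each lay near that of all regions. EGFR, the receptor of all 7 ligands, had a start-site peak in all 40 lists. In its 20 regions, EGF raised 3 in BT474 and 5 in BT474R, and HRG raised 2 and lowered 1 in BT474 and raised 6 in BT474R, read against those shares of all regions. NRG1 and NRG4 had no start-site peak in any list.

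Start sites elsewhere with the closest pattern over the 20 group means were found for the most variable member of each kind. Those most like the EREG intron belonged to DDX47 (Pearson r = 0.992), SMAD3 (0.987) and PDXK (0.987), and those like the BTC intron included FAM111A (0.994) and CYP4F8 (0.993), of 17459 start-site regions. The groups share the split between lines, which fixes most of each correlation.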

How the data were processed

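ATAC-seq had been run on 40 samples of BT474 and BT474R cells. Per the labels and methods, the authors checked reads with FastQC, trimmed them with Trim Galore 0.6.6, mapped them to GRCh38.p13 and called peaks in each library with Genrich after removing mitochondrial reads and blacklisted regions. Neither the Genrich options nor read depth is given in the sources used here. The deposited score is the area under −log10 p over a peak, and the deposited −log10 p is that at its summit. Both depend on library depth, so ranks within a list were used. A fold change was not computed.

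Peaks of all 40 lists overlapping by 1 bp were merged, and regions in at least 2 lists were kept. Rank percentiles (0 without a peak) were fitted with limma 3.58.1 (R 4.3.3) on 20 group means with a mean-variance trend, and p-values were adjusted by Benjamini-Hochberg over all 71600 regions. Presence was tested by two-sided Fisher's exact test, called at an unadjusted p under 0.05 for ligands and an adjusted one for lines. Time-averaged ligand differences were also tested by exact permutation. Scripts were tested on simulated data. Genes were from GENCODE 44. All regions at a member's start site, those called, the 2 highest per gene and the 2 largest differences per ligand and line were eligible to be named. Members and lists were chosen with earlier results of these data known. Alternatives covered the peaks used, the overlap, the window, the ranking, the fit and leaving out each library. The fits of each line alone and of 1 and 24 h only were chosen after seeing the data. Values of 1 marker and 1 start site are not reported here.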

Additional observations from a re-analysis of the deposited data

Results flagged for a closer look

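The EGF response, averaged over 1, 12 and 24 h, differed between the lines at 3 regions by limma's test of the difference (BT474R minus BT474). It was -9.54 at the region 134 kb from the TGFA start, -10.6 at the EREG intron and 8.12 at the PFDN1 intron 51.1 kb from the HBEGF start. The HRG response differed at the EREG intron, by -15.2. The adjusted p-values were 0.0216, 0.0262, 0.0232 and 0.00208. Without the 12 h libraries the TGFA value was -6.04 (adjusted p = 0.357), the EREG value -4.25 (0.643) with EGF and -10.1 (0.164) with HRG, and none of these passed. At the EREG intron all BT474R controls, and its ligand lists at 12 and 24 h, were at 0. The EREG values therefore cannot tell a weaker response from a region below peak calling. Where peaks had to cover 50% of the region the TGFA value was -0.751 (0.986). The PFDN1 value missed the threshold without EGF-BT474R replicate 2 at 1 h (7.18, 0.0574). No control or EGF-BT474 list had a peak in the PFDN1 intron, which entered through ligand lists alone. Its value is the EGF difference of BT474R alone and is given as a description. Outside the 26 regions, 1 list had a peak that no other list shared, at chr4:74435384-74435597, 9.68 kb upstream of AREG. It belonged to HRG-BT474R replicate 1 at 24 h and stood at a rank percentile of 1.96, with no peak in any control list.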

How the results depend on the processing

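Of 83 region calls, 31 held under all alternatives and 53 without each library. The replicate block changed none of the 83 calls. It gave 5 and 7 calls for EGF and 3 and 3 for HRG in BT474 and BT474R, 28 at single time points (26 without it), 5 against 4 for the line difference in response and 11 against 10 for vehicle. Replicate numbers were not treated as pairs in the main fit. The deviations of same-numbered libraries correlated at -0.214 to 0.499 over 190 pairs of groups (median 0.00409), with 12.1% over 0.1. Some pairs of groups thus shared deviations, and the reason was not tested. Counts of members called moved as follows, and the cause was not tested. With the 32479 highest peaks of each list, EGF-BT474R gave 4 (7 with all peaks), HRG-BT474 6 (3), HRG-BT474R 1 (3), the lines 14 (22) and the difference in response 7 (4). With a score of at least 400 these were 2, 6, 1, 14 and 8. With 50% of a region covered, EGF-BT474 gave 3 (5). With the number of peaks as a covariate EGF-BT474 gave 2 and vehicle 2 (10), which was 3 with each line alone. With 1 and 24 h only, HRG-BT474R gave 1, the difference in response 2 and presence with EGF-BT474R 1 (0). By exact permutation, unadjusted, EGF-BT474R gave 3 and HRG-BT474 6. Fewer regions lie within 10 kb, where single time points gave 16, the lines 13 (presence 5), the difference in response 2, EGF against HRG 1 and vehicle 5. Leaving out 1 library gave 3 to 7 calls for EGF-BT474, 2 to 5 for HRG-BT474, 3 to 8 for HRG-BT474R, 2 to 7 for the difference in response, 2 to 5 for EGF against HRG, 6 to 13 for vehicle and 0 to 1 for presence with EGF-BT474R. The signs of 3 values reversed. They were EGF-BT474R at the TGFA intron with 50% covered (-4.146), EGF-BT474R at the BTC start site with 1 and 24 h only (-0.709), and the line difference 35.3 kb from AREG among the highest peaks (0.446). Depth was unknown, so weak peaks cannot be told from shallow libraries.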
